A study of Mus musculus with 20 samples.

Results

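The sarcomeric alpha-actinins, the myozenins and 3 of their partners at the Z-disc of skeletal muscle were followed in mouse soleus. They comprise 8 genes: the alpha-actinins Actn2 and Actn3, the myozenins Myoz1, Myoz2 and Myoz3, and the partner genes Ldb3, Tcap and Myot. They were chosen by symbol, matched through their Ensembl identifiers, and make up 8 of the 56941 gene rows of the count table. All 8 were measured and passed the count filter. Soleus, a postural muscle of the lower leg made up largely of slow and fast oxidative fibres, was taken from C57BL/6J mice. The exposed group of 10 mice underwent hind-limb unloading for 14 days combined with ionizing radiation and with a stressor supplied in the diet, a combination that the labels call space. The control group of 10 mice received sham irradiation. The 3 exposures came together and cannot be told apart. The labels say no more on the origin of the replicates than 10 mice in each group, so the p-values reflect how far these samples vary, which may be technical in part.

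The Z-disc is the border between neighbouring sarcomeres, where actin filaments of opposite polarity are cross-linked by alpha-actinin. In mice Actn2 is made in skeletal muscle and in the heart, whereas Actn3 is made chiefly in fast glycolytic fibres. Myozenins, also called calsarcins, bind alpha-actinin and the phosphatase calcineurin, whose NFAT signalling is known for promoting slow-fibre genes. Myoz2 is the myozenin of slow fibres and heart, while Myoz1 and Myoz3 are those of fast fibres.

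Totals ran between 17336017 and 43424464 read counts per library, and 16778 genes were tested. Defining genes of muscle fibres (Acta1, Ckm, Mb, Des and Ttn) were abundant throughout, with a summed level of 175721 to 253245 CPM (read counts scaled to library depth) in exposed and 193304 to 240160 CPM in control libraries. Ttn made up most of this sum, with a mean of 196223 CPM in exposed and 191420 CPM in control libraries. Exposed replicates 1 to 4 stood apart: 8 Schwann cell markers summed to 508 to 1485 CPM there, against 93.4 to 181 CPM in exposed replicates 5 to 10 and 94.3 to 190 CPM in controls. All 8 of these markers were called higher in the edgeR test over the whole exposed group, where 28.7% of all genes tested were. The sums of exposed replicates 5 to 10 nevertheless overlapped those of the controls. None of the 8 was at 0 in any library. The summed fibre genes were 175721 to 214310 CPM in exposed replicates 1 to 4 and 216234 to 253245 CPM in replicates 5 to 10, and 4 adipocyte markers summed to 70.5 to 169 CPM and 9.72 to 68.1 CPM there, both without overlap. In controls the adipocyte sum ran from 11.0 to 87.2 CPM, which overlaps exposed replicates 1 to 4. Exposed replicates 2 and 3 were more alike than any other pair of exposed libraries: the SD of their log2 differences over genes was 0.116, against 0.188 for the next closest exposed pair. Control replicates 1 and 2 were the closest control pair, at 0.127, against 0.146 for the next. Counts of exposed replicates 2 and 3 still differed by more than sampling noise (a mean chi-square per gene of 2.49, where 1 is sampling noise alone). That value does not tell separate animals from separate libraries of the same animal. Exposed replicates 2 and 3 were kept as separate replicates. In whole muscle, fewer fibres of a type and less RNA per fibre cannot be told apart.

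Promoter sequences were in RefSeq's table (build GRCm38.p6) for 3 of the 8 genes, all of which fell in exposed muscle. They are shown because the table held only these, and because motifs of striated muscle regulators can be read in them directly. Tcap and Myot fell as well but had no promoter there. Each is the 250 bases upstream of the annotated start site, on the minus strand, at chr3:123034988-123035237 for Myoz2, chr13:12340733-12340982 for Actn2 and chr14:34588682-34588931 for Ldb3. Capitals mark E-boxes (CANNTG, the general site of basic helix-loop-helix factors), MEF2 boxes and CArG boxes (bound by serum response factor), searched on both strands.
Myoz2: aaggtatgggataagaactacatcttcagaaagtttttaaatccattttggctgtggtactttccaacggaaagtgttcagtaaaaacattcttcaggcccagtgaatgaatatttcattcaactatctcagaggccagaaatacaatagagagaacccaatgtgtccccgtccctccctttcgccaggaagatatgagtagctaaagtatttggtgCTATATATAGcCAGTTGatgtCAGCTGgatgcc
Actn2: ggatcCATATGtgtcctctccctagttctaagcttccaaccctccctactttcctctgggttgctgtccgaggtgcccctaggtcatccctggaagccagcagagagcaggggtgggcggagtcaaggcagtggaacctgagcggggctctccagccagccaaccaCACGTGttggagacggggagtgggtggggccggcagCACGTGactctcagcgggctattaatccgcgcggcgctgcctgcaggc
Ldb3: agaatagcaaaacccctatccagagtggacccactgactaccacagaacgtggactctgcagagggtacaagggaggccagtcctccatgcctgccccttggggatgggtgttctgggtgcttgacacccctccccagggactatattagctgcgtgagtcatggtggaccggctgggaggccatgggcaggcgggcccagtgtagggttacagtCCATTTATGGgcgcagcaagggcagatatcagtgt
The Myoz2 window holds a match to the MEF2 box from -33 to -24 relative to the start site. Its letters, CTATATATAG, can also be read as a TATA box, and the search does not tell these apart. E-boxes lie from -22 to -17 and from -12 to -7 in that window, with no overlap between any of these matches. The Actn2 window holds 3 E-boxes, from -245 to -240, from -84 to -79 and from -48 to -43. The Ldb3 window holds a CArG box from -35 to -26 and no E-box. RefSeq lists another Ldb3 start site, from which the same CArG box lies at -109 to -100. The NFAT core GGAAA, on either strand, occurs 2 times in the Myoz2 window and 1 time in the Actn2 window. The muscle MCAT element CATTCC was searched as well and found in none of these windows. Of 32851 promoter windows of the same length, 66.2% hold an E-box, 55.6% an NFAT core, 12.6% an MCAT element, 2.92% a MEF2 box and 1.47% a CArG box. A match describes the letters and is no evidence of binding.

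The genes moved in both directions in exposed muscle. Actn3, Myoz1 and Myoz3 were higher, and Actn2, Myoz2, Ldb3, Tcap and Myot were lower. In edgeR's quasi-likelihood test with Benjamini-Hochberg adjustment over all genes tested, 3 of the 8 were called higher and 5 lower at an adjusted p under 0.05, with none left uncalled. Over all 16778 genes, 57.6% were called, 28.7% higher and 28.9% lower, so a call alone sets a gene little apart here. CPM values did not overlap between the groups for 6 of the 8 genes, 2 of them higher and 4 lower in exposed libraries. The same was true of 6.48% of all genes tested in the higher direction and 11.0% in the lower. The median log2 fold change was -0.40 over the 8 genes and 0.02 over all genes tested.

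**Figure D1:**
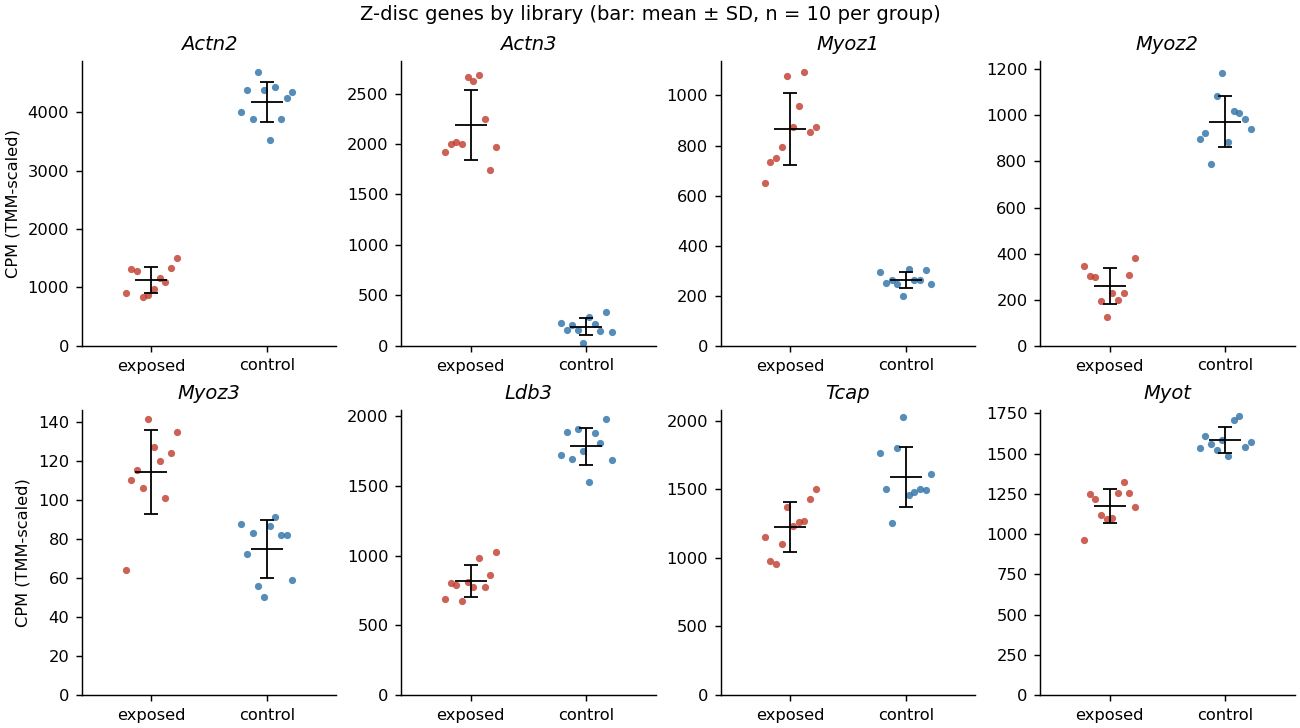
CPM (TMM-scaled, linear axes from 0) of the 8 genes in each of 10 exposed (left) and 10 control (right) libraries; points are libraries in order of replicate number, bars are mean ± SD. Only Myoz3 and Tcap have overlapping groups; exposed replicate 1, at 64.1 CPM, is the single exposed Myoz3 value among the controls.

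The alpha-actinins moved in opposite directions. Actn2, on chromosome 13, encodes alpha-actinin-2, which cross-links thin filaments at the Z-disc. Its lowest, median and highest values were 828, 1132 and 1506 CPM in exposed libraries, against 3526, 4292 and 4683 CPM in control libraries. Every exposed library lay below every control library. Means were 1129 ± 228 CPM in exposed and 4175 ± 343 CPM in control muscle (SD, n = 10 each), a 3.70-fold lower level in exposed muscle. The log2 fold change was -1.89 ± 0.10 (SE; edgeR, Benjamini-Hochberg adjusted p = 7.8e-14). Actn2 ranked 127 of 16778 from the largest fall.

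Actn3, on chromosome 19, encodes the fast-fibre paralog alpha-actinin-3, which in humans is often missing because of a common premature stop codon. Its lowest, median and highest values were 1745, 2014 and 2689 CPM in exposed libraries, against 27.2, 180.5 and 334 CPM in control libraries. The groups did not overlap, and control replicate 5, at 27.2 CPM, was far below the other control libraries (138 to 334 CPM). Means were 2190 ± 348 CPM in exposed and 189.4 ± 85.6 CPM in control muscle (SD, n = 10 each). The log2 fold change of 3.53 ± 0.32 (SE; edgeR, Benjamini-Hochberg adjusted p = 5.45e-09), or 11.6-fold, ranked 6 of 16778 from the largest rise. The spread between control libraries was wide, with a coefficient of variation of 45.2% against 15.9% in exposed libraries. Reads that match both paralogs could be split between them, and the sources used here do not say how such reads were counted.

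The balance between the 2 alpha-actinin genes can be read within each library, where it does not depend on scaling. The Actn3 count per Actn2 count lay between 1.31 and 3.04 in exposed libraries, against 0.00622 to 0.0812 in control libraries. Actn3 counts exceeded Actn2 counts in every exposed library and in no control library. The mean log2 ratio was 0.97 ± 0.43 in exposed and -4.68 ± 1.05 in control libraries (SD, n = 10 each). The difference of 5.64 ± 0.36 (SE), a 49.99-fold change, had an adjusted p of 2e-05 in a 2-sided permutation test with 100000 resamples, adjusted over 4 ratios. Per kilobase of exon model, Actn3 made up 71.5% ± 6.06 of the 2 genes' summed level in exposed and 5.65% ± 2.63 in control muscle (SD, n = 10 each). That sum was 1052 ± 110 CPM per kb in exposed and 1166 ± 82.9 CPM per kb in control muscle, a description without a test, with overlapping groups. Counted per kilobase of the longest coding transcript it was 1133 ± 114 and 1451 ± 105 CPM per kb in exposed and control muscle.

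The non-muscle actinins, which anchor actin at cell contacts and stress fibres, moved little beside these. Actn1 averaged 16.7 ± 1.81 CPM in exposed and 19.8 ± 1.54 CPM in control muscle (log2 fold change -0.25 ± 0.06; edgeR adjusted p = 9.45e-04). It was not called when libraries were scaled by size alone or against a fold of 1.2. Actn4 averaged 65.4 ± 4.86 CPM in exposed and 70.5 ± 6.00 CPM in control muscle and was not called (log2 fold change -0.11 ± 0.05; edgeR adjusted p = 0.0733). It was called lower in 6 of 33 alternatives: limma-voom, the replicate block, and without exposed replicates 1 to 4, exposed replicate 4, control replicate 5 or control replicate 8.

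**Figure D2:**
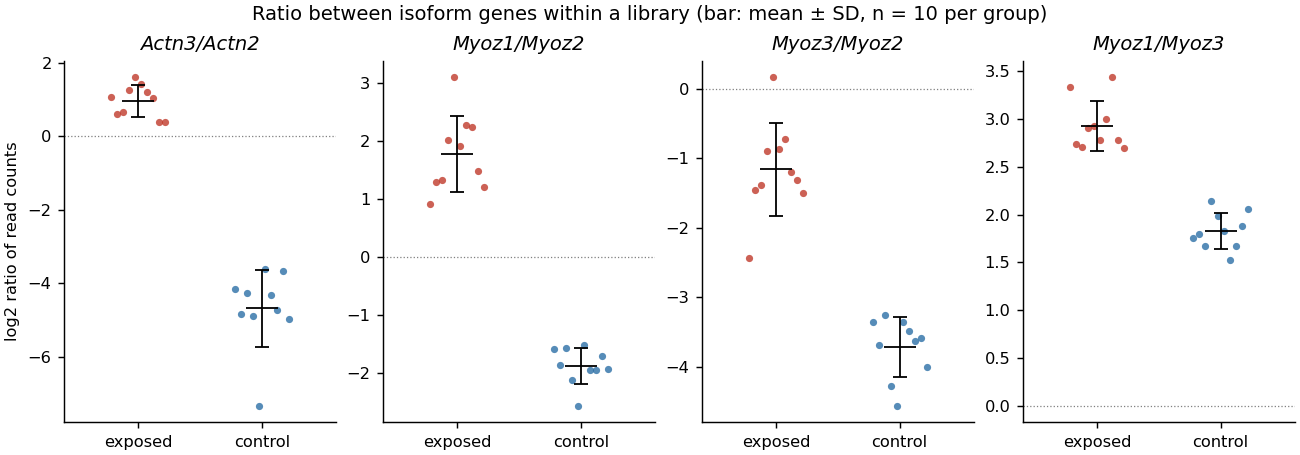
Log2 ratio of read counts between genes of the alpha-actinin and myozenin families within each library, 10 exposed (left) and 10 control (right); points are libraries, bars are mean ± SD, and the dotted line marks equal counts. The groups are separate in all 4 panels, and the Actn3/Actn2 ratio of control replicate 5 lies lowest at -7.33.

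Among the myozenins, Myoz2 fell while Myoz1 and Myoz3 rose. Myoz2, on chromosome 3, encodes calsarcin-1, the slow-fibre and cardiac form. Its promoter, with the match to the MEF2 box, is printed above. The lowest, median and highest values of Myoz2 were 126, 266 and 382 CPM in exposed libraries, against 789, 962 and 1183 CPM in control libraries. No exposed library reached the lowest control. Means were 262 ± 78.1 CPM in exposed and 971 ± 111 CPM in control muscle (SD, n = 10 each), a 3.71-fold lower level with a log2 fold change of -1.89 ± 0.16 (SE; edgeR adjusted p = 1.46e-09). It ranked 125 of 16778 from the largest fall, and its relative spread in exposed libraries was the widest of the 8 genes (coefficient of variation 29.8%, against 11.4% in controls).

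Myoz1, on chromosome 14, encodes calsarcin-2, the myozenin of fast fibres. Its values were 650, 864 and 1093 CPM (lowest, median and highest) in exposed libraries, against 199, 262 and 307 CPM in control libraries. The groups lay far apart. Means were 866 ± 144 CPM in exposed and 264 ± 32.2 CPM in control muscle (SD, n = 10 each), with a log2 fold change of 1.72 ± 0.10 (SE; edgeR adjusted p = 2.22e-13), and the gene ranked 161 of 16778 from the largest rise. Within the exposed group, replicates 1 to 4 held 650 to 796 CPM and replicates 5 to 10 held 855 to 1093 CPM, without overlap. Replicates 1 to 4 also had higher sums of Schwann and adipocyte markers and a lower sum of fibre markers, most of it Ttn. The log2 fold change was 1.86 with replicates 1 to 4 left out.

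Myoz3, on chromosome 18, encodes calsarcin-3, also a fast-fibre form, and changed least of the family. It had 64.1, 117 and 141 CPM (lowest, median and highest) in exposed libraries, against 50.3, 81.8 and 91.4 CPM in control libraries. The groups overlapped through exposed replicate 1 alone; the other 9 exposed libraries, at 100.8 CPM or more, lay above every control library. Means were 114 ± 21.6 CPM in exposed and 74.9 ± 14.8 CPM in control muscle (SD, n = 10 each), with a log2 fold change of 0.61 ± 0.14 (SE; edgeR adjusted p = 4.85e-04), 1.52-fold higher.

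The composition of the family changed accordingly. Myoz1 counts per Myoz2 count lay between 1.89 and 8.53 in exposed libraries, against 0.169 to 0.346 in control libraries, so that the more frequent of the 2 differed between the groups in all 20 libraries. The mean log2 ratio was 1.77 ± 0.66 in exposed and -1.88 ± 0.31 in control libraries, a difference of 3.66 ± 0.23 (SE) or 12.6-fold. The log2 ratio of Myoz3 to Myoz2 was -1.16 ± 0.66 in exposed and -3.72 ± 0.43 in control libraries, a difference of 2.56 ± 0.25. Myoz1 also rose relative to Myoz3: their log2 ratio was 2.93 ± 0.26 in exposed and 1.83 ± 0.19 in control libraries, a difference of 1.10 ± 0.10. Each of these 3 differences had an adjusted p of 2e-05 (2-sided permutation test, 100000 resamples), the smallest these resamples can give, and no groups overlapped. Per kilobase of exon model, Myoz1 held 80.3% ± 4.78 of the summed myozenin level in exposed and 31.4% ± 4.12 in control muscle. Myoz2 held 13.8% ± 4.88 in exposed and 63.7% ± 4.99 in control muscle, and Myoz3 held 5.86% ± 0.905 in exposed and 4.92% ± 1.01 in control muscle. The sum itself has no stable direction: it was 567 ± 67.6 CPM per kb in exposed and 445 ± 24.7 CPM per kb in control muscle by exon model, but 927 ± 89.7 and 1049 ± 78.6 CPM per kb in exposed and control muscle by the longest coding transcript.

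The 3 partner genes all fell, by smaller amounts than Actn2 and Myoz2. Ldb3, on chromosome 14, encodes ZASP or cypher, a PDZ-LIM protein that binds alpha-actinin. It had 673, 797 and 1028 CPM (lowest, median and highest) in exposed libraries, against 1530, 1782 and 1979 CPM in control libraries. The groups did not overlap. Means were 818 ± 114 CPM in exposed and 1785 ± 134 CPM in control muscle (SD, n = 10 each), 2.18-fold lower in exposed muscle, with a log2 fold change of -1.13 ± 0.07 (SE; edgeR adjusted p = 2.36e-12).

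Myot, on chromosome 18, encodes myotilin, an immunoglobulin-domain protein that binds alpha-actinin and filamin. It had 961, 1195 and 1323 CPM (lowest, median and highest) in exposed libraries, against 1484, 1568 and 1732 CPM in control libraries. Groups were again separate, by a narrower gap. Means were 1174 ± 107 CPM in exposed and 1586 ± 79.0 CPM in control muscle (SD, n = 10 each), with a log2 fold change of -0.43 ± 0.05 (SE; edgeR adjusted p = 1.60e-07).

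Tcap, on chromosome 11, encodes telethonin, the cap of titin's end at the Z-disc, and changed least of the 8 genes. It had 957, 1248 and 1505 CPM (lowest, median and highest) in exposed libraries, against 1253, 1501 and 2024 CPM in control libraries. The groups overlapped, although all 10 exposed libraries lay below the control mean. Means were 1227 ± 182 CPM in exposed and 1588 ± 218 CPM in control muscle (SD, n = 10 each), with a log2 fold change of -0.37 ± 0.09 (SE; edgeR adjusted p = 7.10e-04). Exposed replicates 1 to 4 held 957 to 1153 CPM and replicates 5 to 10 held 1231 to 1505 CPM, without overlap. With replicates 1 to 4 left out the log2 fold change was -0.23 (edgeR adjusted p = 0.0203), or 1.17-fold lower in exposed muscle, against 1.29-fold over all libraries. In a test against a fold of 1.2, which 29.0% of all genes passed, 7 of the 8 genes were still called, and Tcap was not (adjusted p = 0.103).

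Leaving out exposed replicates 1 to 4 kept the calls of all 8 genes, 3 higher and 5 lower, where 25.2% of all genes tested were then called higher and 26.1% lower. The log2 fold changes were then -1.84 for Actn2, 3.63 for Actn3, -1.98 for Myoz2, 0.74 for Myoz3, -1.03 for Ldb3 and -0.39 for Myot. Scaling by library size alone shifted calls across all genes to 35.4% higher and 22.4% lower, and the 8 genes kept their calls.

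**Figure D3:**
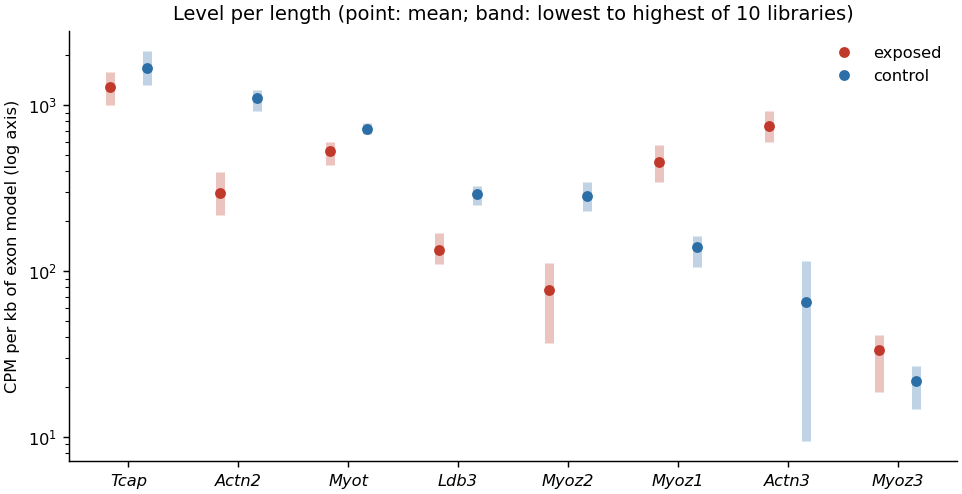
Level of each gene per kilobase of exon model (CPM per kb, log axis) in exposed (left of each pair) and control libraries, in the order of the control means; points are means and bands run from the lowest to the highest of 10 libraries. Actn3 stands seventh in control and second in exposed muscle, while Tcap leads in both.

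Set per length, the order of the genes differed between the groups. In exposed muscle the mean levels per kilobase of exon model were 1294 ± 192 for Tcap, 755 ± 120 for Actn3, 532 ± 48.3 for Myot, 458 ± 76.0 for Myoz1, 298 ± 60.1 for Actn2, 134 ± 18.7 for Ldb3, 76.5 ± 22.8 for Myoz2 and 33.3 ± 6.30 for Myoz3 (CPM per kb, SD, n = 10). In control muscle they were 1675 ± 230 for Tcap, 1100 ± 90.4 for Actn2, 718 ± 35.8 for Myot, 292 ± 22.02 for Ldb3, 284 ± 32.3 for Myoz2, 139 ± 17.0 for Myoz1, 65.3 ± 29.5 for Actn3 and 21.8 ± 4.30 for Myoz3. Tcap, the first gene, and Myoz3, the last, kept their places. In exposed libraries the ranges of neighbours overlapped between Myot and Myoz1, Myoz1 and Actn2, Ldb3 and Myoz2, and Myoz2 and Myoz3. In control libraries they overlapped between Ldb3 and Myoz2, Myoz1 and Actn3, and Actn3 and Myoz3, and Ldb3 exceeded Myoz2 in just 7 of 10. The places in between depend on the length used: by the longest coding transcript Myoz2 stood ahead of Myot in control muscle, at 822 ± 93.7 CPM per kb.

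Other genes of the Z-disc were set beside these. Of 30, 4 were called higher, 18 lower and 8 not, with a median log2 fold change of -0.44, where 28.7% of all genes were higher and 28.9% lower. With exposed replicates 1 to 4 left out, 3 were higher and 16 lower, where 25.2% and 26.1% of all genes were. The lower genes with the smallest p were Pdlim5, Cryab and Pdlim1. Cryab, the small heat-shock protein alphaB-crystallin, averaged 247 ± 73.4 CPM in exposed and 1315 ± 207 CPM in control muscle (log2 fold change -2.41 ± 0.14; edgeR adjusted p = 1.59e-11). Pdlim1 and Pdlim5, PDZ-LIM proteins related to Ldb3, had log2 fold changes of -1.69 ± 0.12 and -0.92 ± 0.06. The higher genes were led by Mypn (myopalladin, a binding partner of alpha-actinin and nebulin) at 0.48 ± 0.04, Pdlim3 at 0.67 ± 0.17 and Sorbs2 at 0.21 ± 0.07. The titin gene Ttn, whose product is capped by telethonin, was not called, at a mean of 196223 ± 20602 CPM in exposed and 191420 ± 11952 CPM in control muscle (log2 fold change 0.04 ± 0.06; edgeR adjusted p = 0.691). Nebulin (Neb, -0.05 ± 0.05) and desmin (Des, -0.07 ± 0.06) were not called either.

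**Figure D4:**
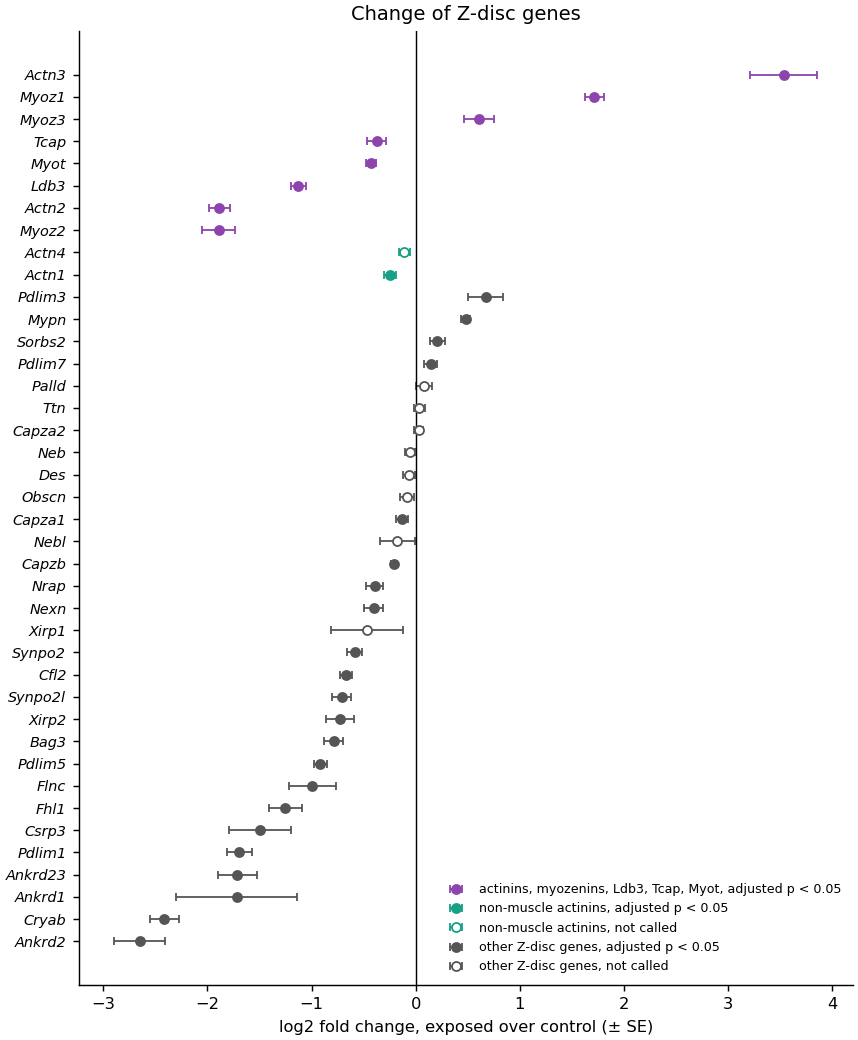
Log2 fold change (exposed over control, ± SE) of the 8 genes at the top, the non-muscle actinins below them and 30 other Z-disc genes underneath; filled points passed an adjusted p of 0.05 and open points did not. Actn3 lies farthest right at 3.53, and Ttn, Neb and Des sit near 0.

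Calcineurin is the enzyme that myozenins bind, and 12 genes of calcineurin and NFAT signalling were counted. Of these, 4 were called higher, 4 lower and 4 not, with a median log2 fold change of 0.01. Their shares lie near the 28.7% higher and 28.9% lower over all genes. The lower ones were led by the calcineurin regulators Rcan2 (2.01-fold lower), Rcan1 (5.02-fold lower) and Rcan3 (1.36-fold lower). Rcan1, itself a known NFAT target, averaged 45.6 ± 15.1 CPM in exposed and 229 ± 43.1 CPM in control muscle (log2 fold change -2.33 ± 0.16; edgeR adjusted p = 5.64e-10). The higher ones included the catalytic subunits Ppp3ca and Ppp3cb, with log2 fold changes of 0.60 ± 0.05 and 0.17 ± 0.05, and the transcription factor Nfatc2, at 0.52 ± 0.09.

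Sarcomere and calcium-pump genes of slow and of fast fibres moved in opposite directions. Of 8 slow genes, all 8 were called lower, with a median log2 fold change of -1.32, where 28.9% of all genes were lower. Among them were the myosin light chain Myl3 (-1.76 ± 0.13), the calcium pump Atp2a2 (-0.73 ± 0.08) and the troponin Tnnc1 (-1.51 ± 0.18). With exposed replicates 1 to 4 left out, 7 slow genes were called lower, where 26.1% of all genes were. Of 8 fast genes, 7 were called higher and 1 was not called, with a median of 0.48, where 28.7% of all genes were higher. Among the higher ones were the calcium pump Atp2a1 (1.29 ± 0.05) and the myosin heavy chain Myh1 (2.07 ± 0.16). The gene not called was Myl1 (log2 fold change -0.16 ± 0.12; edgeR adjusted p = 0.196). Against a fold of 1.2, 5 fast genes were called higher, where 14.2% of all genes were. Myh4, the fastest myosin heavy chain, averaged 13538 ± 2203 CPM in exposed and 647 ± 495 CPM in control muscle (log2 fold change 4.39 ± 0.60; edgeR adjusted p = 1.08e-06). Myh7, the slow one, averaged 4650 ± 1858 CPM in exposed and 10184 ± 1151 CPM in control muscle (log2 fold change -1.13 ± 0.20; edgeR adjusted p = 2.84e-05). These lists are descriptions by count, and no test sets them apart from other genes.

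Relations between genes were read across the libraries of each group. Among 88 relations (pairs of the 8 genes, and each with Myh4 or Myh7, in each group of 10), 6 had a Benjamini-Hochberg adjusted permutation p under 0.05 for Pearson's r, 5 of them in control libraries, and 4 had one for Spearman's rho. No pair among the 8 genes passed in exposed libraries. Actn3 and Myoz1 had r = 0.934 (permutation p = 8e-05, adjusted p = 0.00704) and rho = 0.903 (permutation p = 0.00088, adjusted p = 0.0352) in control libraries. Actn3 and Myh4 had r = 0.948 (permutation p = 0.00024, adjusted p = 0.0106) and rho = 0.939 (permutation p = 0.00027, adjusted p = 0.0238) there. Control replicate 5 was lowest in Actn3, Myoz1 and Myh4. Without the 2 libraries farthest from the median of the second gene, replicate 5 among them, r was 0.874 for the first pair and 0.824 for the second. Myoz1 and Myh4 had r = 0.883 (permutation p = 0.00189, adjusted p = 0.0333) and rho = 0.794 (permutation p = 0.00927, adjusted p = 0.0906) in control libraries, and r = 0.755 without the 2 farthest.

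Myoz3 joined this group less firmly. With Myoz1 it had r = 0.823 (permutation p = 0.00174, adjusted p = 0.0333) and rho = 0.855 (permutation p = 0.00314, adjusted p = 0.0553) in control libraries. With Actn3 it had r = 0.775 (permutation p = 0.00271, adjusted p = 0.0397) and rho = 0.745 (permutation p = 0.0179, adjusted p = 0.143). By rank, neither these nor Myoz1 with Myh4 passed the adjustment. Both Myoz3 relations were weaker without replicates 4 and 5, with fewer libraries to test: r was 0.621 (permutation p = 0.0876) and 0.633 (permutation p = 0.0836).

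Myoz2 followed the slow myosin Myh7. In exposed libraries they had r = 0.873 (permutation p = 0.00067, adjusted p = 0.0197) and rho = 0.879 (permutation p = 0.0016, adjusted p = 0.0352), and r = 0.868 without the 2 libraries farthest from the median. With exposed replicates 1 to 4 left out it was 0.918. In control libraries they had r = 0.724 (permutation p = 0.0177, adjusted p = 0.112) and rho = 0.891 (permutation p = 0.00123, adjusted p = 0.0352), so the relation passed by rank in both groups. Without control replicates 5 and 6, the 2 farthest from the median, the control r was 0.621. The difference between groups was not tested.

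**Figure D5:**
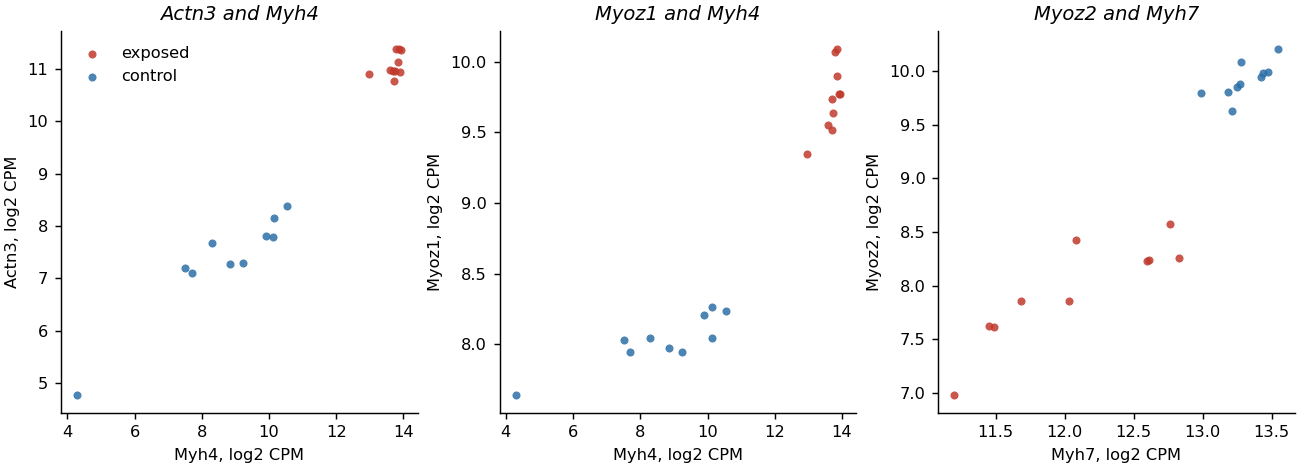
Log2 CPM of Actn3 and Myoz1 against the fast myosin Myh4 and of Myoz2 against the slow myosin Myh7, for 10 exposed and 10 control libraries; each point is a library. Groups form separate clouds, so relations are given within groups, and control replicate 5 is the lowest control point in the first 2 panels.

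Among 7286 protein-coding genes whose mean CPM reached 10, those most like each gene were ranked by Pearson's r of log2 CPM after removal of each group's mean, over 20 libraries. These are descriptions with no test, and the values share library and scaling. Actn3 was followed most closely by Pvalb (r = 0.954), the calcium buffer parvalbumin, and Mybpc2 (0.951), the fast myosin-binding protein C. Control replicate 5 lay far below the other controls in Actn3, and no value without it is given. Within exposed libraries alone, r was 0.921 for Pvalb and 0.757 for Mybpc2. Myoz1 was followed by the muscle enolase Eno3 (0.912) and the muscle creatine kinase Ckm (0.900), and Myoz3 by the lactate dehydrogenase Ldha (0.897) and the phosphorylase kinase subunit Phkg1 (0.889). Myoz2 was followed by the slow regulatory light chain Myl2 (0.911) and Xpo4 (0.884), a nuclear transport receptor. Actn2 was followed by the M-band gene Myom3 (0.886) and the slow myosin-binding protein C gene Mybpc1 (0.876). Tcap was followed by Tef (0.847) and Nr1d2 (0.841), which encode transcription factors linked to the circadian clock. Ldb3 was followed by Gpc1 (0.875) and Zbtb21 (0.863), and Myot by Map3k20 (0.871) and Lmo7 (0.844). Within a single group r could differ from these values, in either direction. For Actn3 with Mybpc2 it was 0.757 in exposed and 0.976 in control libraries. For Ldb3 with Gpc1 it was 0.949 in exposed and 0.660 in control libraries.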

How the data were processed

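Per the labels' protocols, ribosomal RNA was depleted from 90 ng of total RNA and libraries were sequenced as paired ends. The authors deposited raw read counts in one table, with a row for each Ensembl gene and no normalization. The submitters' processing notes name MultiQC 1.15, Subread, featureCounts 1.5.1, edgeR and the build GRCm39. The sources used here give neither their roles nor the strand setting, the annotation release or the treatment of ambiguous reads. Gene names (51948 of 56941 rows), chromosomes and exon lengths came from GENCODE M21 on the older build GRCm38, and promoters from RefSeq (GRCm38.p6).

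The counts entered edgeR 4.0.16 (R 4.3.3) with filterByExpr (minimum count 10, minimum total 15), TMM scaling and robust quasi-likelihood fits over the whole table. Adjusted p-values (Benjamini-Hochberg) under 0.05 were called. CPM use TMM-scaled library sizes, log2 CPM a prior count of 2. Each SE printed beside a log2 fold change was taken from log2 CPM, as the SE of the difference between the 2 group means. Ratios within a library used counts plus 2. Permutation tests were coded with numpy 2.4.6, with ranks from scipy 1.17.1. The test was checked on simulated data.

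The 8 genes, the gene lists and the libraries left out were chosen with earlier results of these data known. Besides the 8 genes, the text names from each list the 3 called rises and 3 called falls with the smallest p, Actn1, Actn4, Myh4 and Myh7, relations with an adjusted p under 0.05, and for each of the 8 the 2 genes most like it. Ttn, Neb, Des and Myl1 were named, and the calls of Acta1, Ckm and Mb given, after their values were seen. Alternatives were DESeq2 1.42.0, limma 3.58.1 voom with quality weights, 3 other scalings, other filters and thresholds, a replicate block, and libraries left out. Summing exposed replicates 2 and 3 and the length of the longest coding transcript were chosen after seeing the data.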

Additional observations from a re-analysis of the deposited data

Results flagged for a closer look

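In 24 sets of 10 libraries (the 8 genes and 4 ratios in each group), 2 had a lowest library far from the rest, where chance gives about 1 in 20. Exposed replicate 1 had 64.1 CPM of Myoz3, against 100.8 to 141.3 CPM in the other exposed libraries. Control replicate 5 had a log2 Actn3/Actn2 ratio of -7.33, against -4.98 to -3.62 in the other control libraries. Neither was tested further.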

How the results depend on the processing

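All 8 genes kept their direction and their call with DESeq2 or upper-quartile factors, with library size alone, in the DESeq2 and limma-voom tests, without the most abundant genes, under other filters, an adjusted p under 0.01 and the replicate block, and with exposed replicates 1 to 4 left out or 2 and 3 summed. The 1 exception was Tcap (log2 fold change -0.37, edgeR adjusted p = 0.103) in the test against a fold of 1.2. There 2 of 30 other Z-disc genes were called higher and 13 lower. Of 12 calcineurin and NFAT genes, 2 were called higher and 3 lower. Over all genes 14.2% were higher and 14.8% lower in that test. With each library left out in turn, log2 fold changes ranged from 3.40 to 3.66 for Actn3, -1.94 to -1.85 for Actn2, 1.67 to 1.75 for Myoz1, -1.97 to -1.81 for Myoz2, 0.56 to 0.68 for Myoz3, -1.17 to -1.10 for Ldb3, -0.41 to -0.33 for Tcap and -0.45 to -0.41 for Myot. Fast sarcomere genes called lower numbered 0 to 1 (1 without exposed replicate 7). Without the 2 farthest libraries, r was 0.621 for Myoz1 with Myoz3 and 0.633 for Actn3 with Myoz3. With the longest coding transcript, the exposed minus control sum was -318.05 CPM per kb for alpha-actinins and -122.061 CPM per kb for myozenins, whose direction reversed through the length alone.

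Same-numbered libraries of the 2 groups did not pair: correlations of their deviations ran from -0.132 to 0.0982, and 0 of 10 exposed libraries matched its own number best. With the replicate block the log2 fold changes were -1.91 for Actn2, 3.67 for Actn3, 1.71 for Myoz1, -1.94 for Myoz2, 0.61 for Myoz3, -1.13 for Ldb3, -0.38 for Tcap and -0.44 for Myot.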
